A study of Mus musculus with 8 samples.

Results

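Leydig cell steroidogenesis genes were followed in spermatocyte RNA-seq libraries: 10 genes were chosen by name as the steroidogenic genes of the Leydig cell together with *Insl3*, and all 10 were found by symbol among the 23235 symbols of the data. Spermatocytes were sorted by Hoechst and propidium iodide staining from testes of 6-week-old male C57BL/6 mice at the leptotene and zygotene stages (LZ) or the pachytene and diplotene stages (PD), from WT mice and from *Cnot4*-null mice (*Cnot4* fl/fl;Stra8-Cre), so that each of the 4 groups had 2 libraries, or 8 together. The Cre is driven by *Stra8*, a gene of premeiotic male germ cells, so it is meant to act in germ cells and not in the somatic cells of the testis. The study calls the duplicates biological replicates, and neither the labels nor the methods say whether they came from separate animals, so p-values measure the spread between these libraries. The methods describe Smart-Seq2 libraries made from sorted cells, whereas the labels describe Trizol extraction and TruSeq libraries from total RNA, and the values do not show which was used. Levels are FPKM, the fragments of a transcript per kilobase of its length and scaled to the mapped fragments of the library. The summed FPKM was between 676452 and 893372 per library, and read counts were not used. All cells were labelled as spermatocytes, the study stained the sorted populations for SYCP3 and phosphorylated H2AX, and the spermatocyte gene *Sycp3* was at 260 to 1725 FPKM in the 8 libraries.

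Leydig cells lie between the seminiferous tubules and make testosterone. Luteinizing hormone binds the receptor LHCGR and raises cyclic AMP, cholesterol enters the cell in part through SCARB1, and STAR moves it to the inner mitochondrial membrane. There CYP11A1, fed with electrons by ferredoxin (FDX1), cuts the side chain, and HSD3B1 or HSD3B6, CYP17A1 and HSD17B3 carry the product on to testosterone. INSL3 is a peptide hormone of the same cells, required for the descent of the testis. *Fdx1* and *Scarb1* are also expressed in other cell types.

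The deleted gene itself was at 36.03 and 34.9 FPKM in WT at LZ, 43.2 and 34.6 in *Cnot4*-null at LZ, 76.6 and 73.1 in WT at PD, and 65.9 and 53.5 in *Cnot4*-null at PD. At LZ the genotypes overlapped, whereas both values of *Cnot4*-null lay lower at PD without passing the threshold (log2 change −0.33, limma adjusted p = 0.192). After rescaling to the same median the gene was called lower at PD (−1.75, adjusted p = 0.000501), in 1 of 18 alternatives. The deletion removes a single exon, and 1 value per gene does not show whether that exon was read, so these values do not check the genotype labels.

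*Insl3* was the gene with the highest FPKM of all 23235 symbols in both *Cnot4*-null PD libraries, at 9669 and 21607.5 FPKM. It was at 104 and 4.90 FPKM in WT at PD, at 15.0 and 8.75 in WT at LZ, and at 8.25 and 16.9 in *Cnot4*-null at LZ. Its rank among the symbols was 1328 and 6986 in the WT PD libraries and between 4598 and 6990 in the 4 LZ libraries. The *Cnot4*-null PD libraries thus lay far above the other 6, which overlapped at LZ, and the WT PD libraries were themselves unequal. In bulk samples, fewer cells of a type and less RNA per cell cannot be told apart. *Insl3* held 1.08% and 3.19% of the summed FPKM of the *Cnot4*-null PD libraries, and 0.0122% and 0.000578% of that of the WT PD libraries.

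*Insl3* lies on mouse chromosome 8 (mm9, chr8:74213113-74214474, plus strand) inside the annotated gene *Jak3* (chr8:74200195-74214474, plus strand). A transcript of *Jak3*, the gene of a cytokine receptor kinase, ends in a non-coding exon that covers the last 404 of the 623 exon bases of *Insl3*, or 64.8%, including 191 coding bases. Reads from that stretch, chr8:74214071-74214474, cannot be assigned to either gene by position alone. *Jak3* was at 0.663 and 0.743 FPKM in WT at PD and at 2.28 and 4.48 in *Cnot4*-null at PD, far below *Insl3* in the same libraries.

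The stretch of 60 bases before the transcription start that holds a core motif of NR5A1, the nuclear receptor that regulates steroidogenic genes, or of the GATA factors is shown for the members that have such a motif. All of these but *Fdx1* were called higher in *Cnot4*-null at PD, as were *Cyp11a1* and *Hsd17b3*, which have no such motif upstream. Of all genes tested, 41.6% were called higher there. RefSeq promoters (GRCm38.p6, 250 bases before and 50 after the start) were matched for 7 of the 10 members, with *Star*, *Cyp17a1* and *Scarb1* not matched, and the motifs TCAAGG and AGATAA were searched on both strands; neither contains the other. Capitals mark the motif on either strand, so that CCTTGA and TTATCT also appear. The motifs were chosen after the sequences had been seen.
Insl3 (chr8:71689087-71689146, plus strand): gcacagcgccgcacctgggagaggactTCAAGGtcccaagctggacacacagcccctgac
Lhcgr (chr17:88792101-88792160, minus strand): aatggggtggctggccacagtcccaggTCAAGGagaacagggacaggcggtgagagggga
Fdx1 (chr9:51963668-51963727, minus strand): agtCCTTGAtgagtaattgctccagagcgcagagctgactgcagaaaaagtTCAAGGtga
Hsd3b1 (chr3:98859893-98859952, minus strand): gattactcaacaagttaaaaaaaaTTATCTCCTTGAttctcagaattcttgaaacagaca
Hsd3b6 (chr3:98814444-98814503, minus strand): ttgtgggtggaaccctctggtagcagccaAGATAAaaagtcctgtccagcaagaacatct

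TCAAGG was present within the 250 upstream bases of *Insl3*, *Lhcgr*, *Fdx1* and *Hsd3b1*, 4 of the 7 matched members, and in 12.5% of all 32851 promoters over the same length. AGATAA was present there in *Hsd3b1* and *Hsd3b6*, 2 of 7, and in 9.99% of all promoters. *Fdx1*, which was not called at PD, has TCAAGG, and *Hsd17b3* and both promoters of *Cyp11a1* hold neither motif in the upstream window. Over the full 300 bases, TCAAGG was also present in *Cyp11a1*, so in 5 of the 7 matched members, and in 14.4% of all promoters. A match is a description of letters and was not tested as a binding site. Since the motifs were chosen after these sequences had been seen, the members' counts beside the shares of all promoters are no test.

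At PD, 9 of the 10 genes were called higher in *Cnot4*-null than in WT, where called means an adjusted p under 0.05 in a limma fit of log2(FPKM + 1) to all 8 libraries. In the same comparison 41.6% of the 15899 genes tested were called higher and 11.5% lower. Both *Cnot4*-null libraries lay above both WT libraries for the same number of members, 9, and for 58.2% of all genes tested. Of the 10, 4 (*Hsd3b1*, *Hsd3b6*, *Hsd17b3* and *Lhcgr*) passed the filter of an FPKM above 1 only through *Cnot4*-null PD libraries and so had to differ, and 5 of the other 6 were called. The median log2 change of the members was 4.45, beside 0.66 over all genes tested, and it was 6.74 with a pseudocount of 0.1. Over the 6 members that passed the filter through another group too, it was 3.87. Since the median of all genes was shifted, the called changes less 0.66 ran from 0.84 (*Scarb1*) to 8.52 (*Insl3*), and the shift itself was −0.11 after quantile normalization, −0.21 with medians made equal and 0.80 with sums made equal. Those scalings called 2855 genes higher and 4070 lower, 3704 and 6378, and 6782 and 1800, against 6619 and 1830 without scaling.

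**Figure D1:**
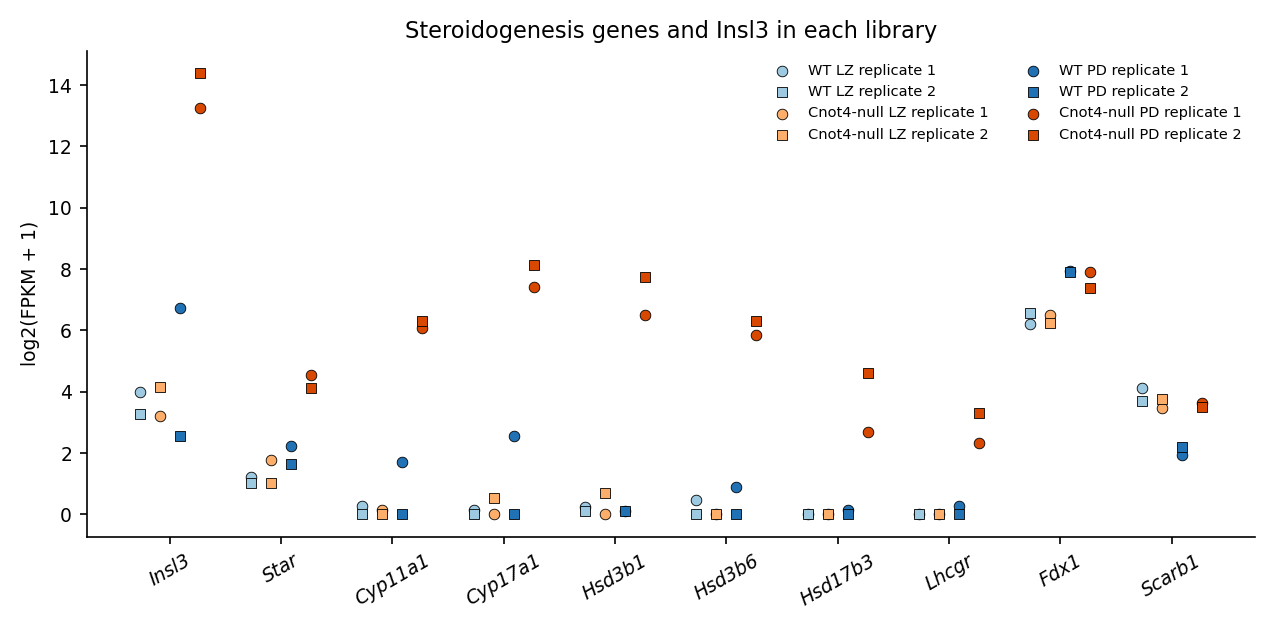
Level of each of the 10 genes in each of the 8 libraries, on a log2(FPKM + 1) axis; colours are groups, circles are replicate 1 and squares replicate 2. *Insl3* reaches 9669 and 21607.5 FPKM in *Cnot4*-null at PD, and 5 genes listed at 0 in WT PD replicate 2 are above 4 FPKM in both *Cnot4*-null PD libraries.

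The log2 change of *Insl3* at PD was 9.18 ± 1.19 (SE; 2 libraries per genotype; limma adjusted p = 0.00102), or 8.52 above the median of all genes. It ranged from 7.10 to 11.26 over the alternatives run, and remained called in all 18 of them.

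*Lhcgr*, which encodes the receptor for luteinizing hormone (mm9, chr17:89140889-89191316, minus strand), was listed at 0 in all 4 LZ libraries, at 0.218 and 0 FPKM in WT at PD, and at 4.03 and 8.85 in *Cnot4*-null at PD (log2 change 2.67 ± 0.35, SE, limma adjusted p = 0.00107). *Scarb1*, the receptor through which the cell takes up cholesterol from high-density lipoprotein (chr5:125757457-125821464, minus strand), was at 16.6 and 12.1 FPKM in WT at LZ, 9.99 and 12.6 in *Cnot4*-null at LZ, 2.88 and 3.58 in WT at PD, and 11.5 and 10.4 in *Cnot4*-null at PD. Its *Cnot4*-null PD level thus lay in the range of the LZ libraries, and only WT PD was low. The change of *Scarb1* at PD was 1.504 ± 0.25 (SE, limma adjusted p = 0.00297), 0.84 above the median of all genes, and it was not called after quantile normalization (0.40, adjusted p = 0.262) or after rescaling to the same median (0.29, adjusted p = 0.382).

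*Star*, whose protein delivers cholesterol to the mitochondrion (chr8:26918946-26925782, plus strand), was at 1.31 and 1.04 FPKM in WT at LZ, 2.45 and 1.04 in *Cnot4*-null at LZ, 3.67 and 2.098 in WT at PD, and 22.6 and 16.4 in *Cnot4*-null at PD. The rise of *Star* at PD was 2.41 ± 0.36 on the log2 scale (SE, limma adjusted p = 0.00186), the smallest among the 9 genes called after that of *Scarb1*. *Cyp11a1*, the side-chain cleavage enzyme (chr9:57862820-57874827, plus strand), was at 0.198 and 0 FPKM in WT at LZ, 0.106 and 0 in *Cnot4*-null at LZ, 2.28 and 0 in WT at PD, and 67.3 and 77.5 in *Cnot4*-null at PD. Its *Cnot4*-null PD libraries were close to each other and above the other 6 (5.34 ± 0.52, SE, limma adjusted p = 0.000345).

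*Fdx1*, the electron carrier of that enzyme (chr9:51751412-51771661, minus strand), was the exception. It was at 73.6 and 93.2 FPKM in WT at LZ, 88.9 and 75.3 in *Cnot4*-null at LZ, 245 and 238.004 in WT at PD, and 237.765 and 166 in *Cnot4*-null at PD. Unlike the other members it was abundant in every library, and both *Cnot4*-null PD values lay below both WT PD values by less than the threshold (log2 change −0.28 ± 0.24, SE, limma adjusted p = 0.334). Less the median of all genes the difference was −0.94, it turned positive after quantile normalization (0.09, adjusted p = 0.687), and *Fdx1* was called lower after rescaling to the same median (−1.71, adjusted p = 0.000891).

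*Cyp17a1*, whose product converts progestins to androgens (chr19:46741655-46747464, minus strand), was at 0.0950 and 0 FPKM in WT at LZ, 0 and 0.449 in *Cnot4*-null at LZ, 4.93 and 0 in WT at PD, and 168 and 278 in *Cnot4*-null at PD (log2 change 6.48 ± 0.75, SE, limma adjusted p = 0.000663). *Hsd17b3*, the enzyme of the final step to testosterone (chr13:64159582-64190509, minus strand), was listed at 0 in all 4 LZ libraries, at 0.118 and 0 in WT at PD, and at 5.45 and 23.4 in *Cnot4*-null at PD (3.57 ± 0.56, SE, limma adjusted p = 0.00215). *Cyp17a1* was thus the more abundant in both *Cnot4*-null PD libraries and *Hsd17b3* the more unequal between them.

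*Hsd3b1* and *Hsd3b6* encode isoforms of hydroxysteroid dehydrogenase, and their coding sequences are shown over the first 60 bases because reads of similar genes can be hard to tell apart. They lie on chromosome 3 (mm9, minus strand, chr3:98656117-98663717 and chr3:98609427-98618366). Capitals mark the 7 of these 60 positions at which the coding sequences differ.
Hsd3b1: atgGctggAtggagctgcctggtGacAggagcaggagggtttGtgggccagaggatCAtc
Hsd3b6: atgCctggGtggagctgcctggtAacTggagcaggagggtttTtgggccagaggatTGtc

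Over the 1122 coding bases of each, *Hsd3b1* and *Hsd3b6* differed at 112 positions and were 90.0% identical, with a longest identical run of 72 bases. Of all windows of 50 bases, the length to which the reads were trimmed, 2.22% of those of the *Hsd3b1* transcript and 16.1% of those of *Hsd3b6* occurred in a transcript of another protein-coding gene. *Star*, *Cyp11a1*, *Cyp17a1*, *Hsd17b3*, *Lhcgr*, *Fdx1* and *Scarb1* had no such window, and in *Insl3* 61.8% were shared, all with *Jak3*. The related *Hsd3b2* was at 0.486 and 0.118 FPKM in *Cnot4*-null at PD, and *Hsd3b3*, *Hsd3b4* and *Hsd3b5* were listed at 0 in all 8 libraries. A listed 0 can be a failed estimate, since *Hmgcs1*, a cholesterol synthesis gene that cells use widely, was also listed at 0 in every library.

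*Hsd3b1* was at 0.189 and 0.0893 FPKM in WT at LZ, 0 and 0.625 in *Cnot4*-null at LZ, 0.0777 and 0.0712 in WT at PD, and 89.7 and 216 in *Cnot4*-null at PD. *Hsd3b6* was at 0.389 and 0 in WT at LZ, 0 in both *Cnot4*-null LZ libraries, 0.881 and 0 in WT at PD, and 56.1 and 78.2 in *Cnot4*-null at PD. The log2 changes at PD were 7.03 ± 0.44 for *Hsd3b1* (SE, limma adjusted p = 0.000126) and 5.62 ± 0.38 for *Hsd3b6* (SE, limma adjusted p = 0.000144). The FPKM of *Hsd3b1* was 1.60 times that of *Hsd3b6* in *Cnot4*-null PD replicate 1 and 2.76 times in replicate 2. Sequence shared within the family may make the split between these genes uncertain. Only uniquely mapped reads were kept by the authors, and the effect on the split was not tested.

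**Figure D2:**
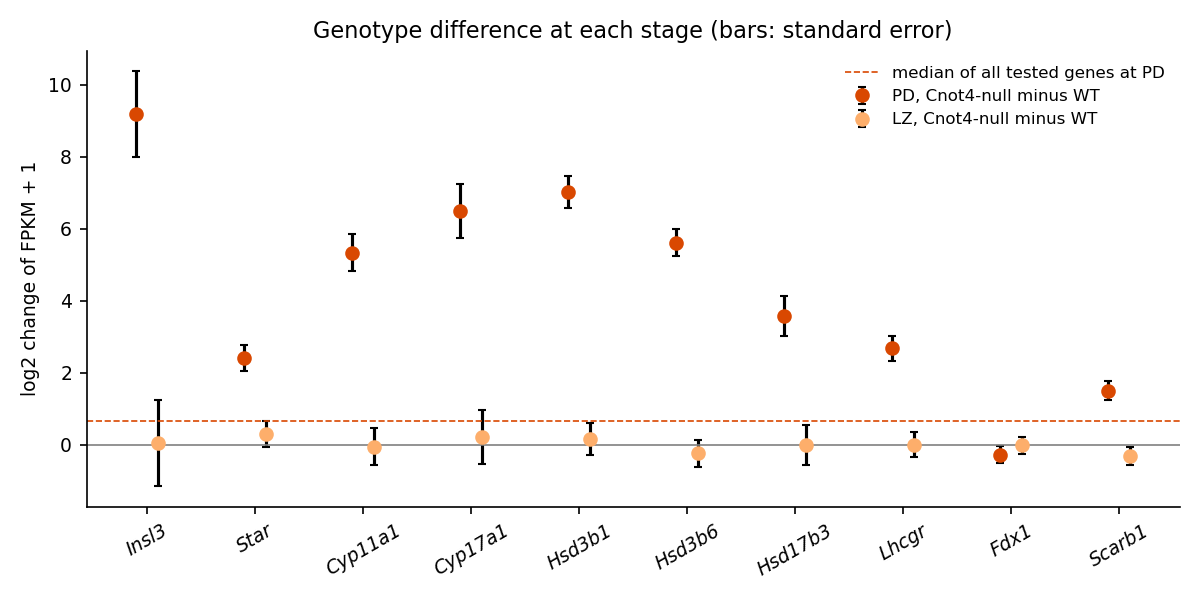
Log2 change of FPKM + 1 from WT to *Cnot4*-null for each gene at PD and at LZ; bars are standard errors of the limma fit (2 libraries per group), and the dashed line is the median of all genes tested at PD, 0.66. The PD values run from −0.28 for *Fdx1* to 9.18 for *Insl3*, and the LZ values from −0.31 to 0.29.

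At LZ, 0 of the 10 genes were called between the genotypes by limma, and 0 had an unadjusted p under 0.05. Of all genes tested 0.0943% were called, 15 of 15899, and 1013 had an unadjusted p under 0.05. The log2 changes of the members lay between −0.31 for *Scarb1* and 0.29 for *Star*, and no member separated the genotypes at LZ. Of the 15899 genes tested, 2889 had both *Cnot4*-null LZ libraries above both WT LZ libraries, and 2858 had both below. *Insl3*, *Star*, *Fdx1* and *Scarb1* were above 1 FPKM in all 4 LZ libraries, and the other 6 were below 1 in each.

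The genotype effect at PD exceeded that at LZ for the same number of members, 9, by limma's test of the difference, and for 26% of all genes tested (4139 higher and 631 lower). The scaling decides this balance, with 1536 higher and 1919 lower after quantile normalization, and 2167 and 5146 with medians made equal. Of the members, *Hsd3b1*, *Hsd3b6*, *Hsd17b3* and *Lhcgr* passed the filter only through *Cnot4*-null PD libraries. The filter thus set the direction of their difference here too. The difference was 9.14 for *Insl3* (adjusted p = 0.00882), 6.86 for *Hsd3b1* (adjusted p = 0.00136), 2.12 for *Star* (adjusted p = 0.0218) and 1.81 for *Scarb1* (adjusted p = 0.0112). For *Fdx1* it was −0.26 (adjusted p = 0.557). After quantile normalization 5 members were called, with no filter 6, and when single libraries were left out the count was 6 to 9. The call of *Star* was lost without WT LZ replicate 1 (2.03, adjusted p = 0.0739) or 2 (2.21, 0.0556), *Cnot4*-null LZ replicate 2 (1.74, 0.0712), or WT PD replicate 1 (2.42, 0.0561) or 2 (1.83, 0.106). That of *Hsd17b3* was lost when any single LZ or WT PD library was left out (adjusted p = 0.0560 to 0.0766), that of *Lhcgr* without WT PD replicate 2 (2.53, 0.0537) and that of *Scarb1* without WT PD replicate 1 (1.69, 0.0639). With no filter *Insl3* (adjusted p = 0.0512), *Star* (0.0644) and *Hsd17b3* (0.0644) were not called, and with a pseudocount of 0.1 *Cyp17a1* (0.0525) was not. Quantile normalization removed the calls of *Star* (0.106), *Hsd17b3* (0.0642), *Lhcgr* (0.0595) and *Scarb1* (0.227). With medians made equal *Star* (0.184) and *Scarb1* (0.267) lost theirs and *Fdx1* was called lower (−1.73, adjusted p = 0.00691).

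From LZ to PD in WT, *Fdx1* rose (log2 change 1.53, limma adjusted p = 0.00105) and *Scarb1* fell (−1.85, limma adjusted p = 0.000603), in both libraries of each, while 21.6% of all genes tested were called higher and 36.2% lower (3436 and 5754 genes; 4107 and 4819 after quantile normalization, 5174 and 4265 with medians made equal). The other 8 were not called in WT. *Star* (0.81, adjusted p = 0.0943) was called after quantile normalization (1.38, adjusted p = 0.00815), with medians made equal (1.48, 0.00880) and with replicate number as a block (0.0452). Without WT PD replicate 2, *Insl3* (3.08, adjusted p = 0.0107), *Cyp17a1* (2.50, adjusted p = 0.00731) and *Cyp11a1* (1.58, adjusted p = 0.0165) were called higher as well, 5 in all. From LZ to PD in *Cnot4*-null, 9 members were called higher, beside 27.8% of all genes higher and 18.2% lower. Of the genes tested these were 4423 and 2893, which turned to 2981 and 4978 after quantile normalization and to 3326 and 5183 with medians made equal. Among the 9 members, *Hsd3b1*, *Hsd3b6*, *Hsd17b3* and *Lhcgr* had to rise, because they passed the filter only through *Cnot4*-null PD libraries. The rise of *Insl3* was 10.13 (limma adjusted p = 0.000865) and that of *Fdx1* 1.27 (limma adjusted p = 0.00470), and the exception was *Scarb1* at −0.03 (limma adjusted p = 0.923).

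The WT PD libraries were unequal for most members. In replicate 1 all 10 were above 0, and in replicate 2 *Cyp11a1*, *Cyp17a1*, *Hsd3b6*, *Hsd17b3* and *Lhcgr* were listed at 0. As a percentage of the *Cnot4*-null PD mean, replicate 1 held 0.667% of *Insl3*, 3.15% of *Cyp11a1*, 2.21% of *Cyp17a1*, 1.31% of *Hsd3b6*, 0.820% of *Hsd17b3* and 3.39% of *Lhcgr*. For *Hsd3b1* it held 0.0509%, beside 0.0466% for replicate 2. At levels as low as those of *Hsd3b1*, *Hsd17b3* and *Lhcgr* here a value may rest on a single read, so these percentages are rough. Replicates 1 and 2 held 18.8% and 10.8% of *Star*, 26.2% and 32.7% of *Scarb1*, and 121% and 118% of *Fdx1*. Replicate 1 was the higher for 9 of the 10 members, for 12 of 15 other Leydig cell genes, 6 of 7 peritubular myoid, 5 of 6 spermatogonial, 5 of 7 pachytene and 2 of 11 Sertoli cell genes (2 equal), and for 54.9% of the 17058 symbols above 0 in a WT PD library. It was also the higher for 18 of 29 cholesterol, 8 of 16 luteinizing hormone signalling and regulation, and 11 of 27 redox and steroid enzyme genes (9 equal). Among other cell markers these were 5 of 12 macrophage (2 equal), 4 of 8 endothelial (2 equal) and 3 of 7 early meiotic genes. The count of members includes *Hsd3b1*, at 0.0777 and 0.0712 FPKM, where each value may rest on a single read.

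**Figure D3:**
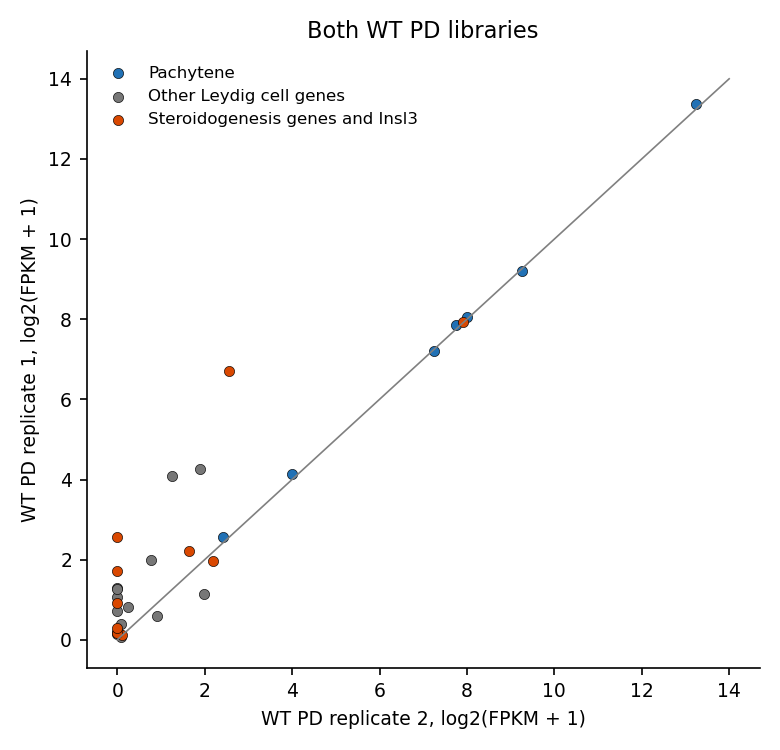
Level in WT PD replicate 1 against WT PD replicate 2 on log2(FPKM + 1) axes, for the 10 genes, the 15 other Leydig cell genes and 7 pachytene genes; the line marks equal values. *Insl3* is at 104 FPKM in replicate 1 and 4.90 in replicate 2, and *Ldhc*, the most abundant pachytene gene, at 10594.5 and 9725.

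By mean level in *Cnot4*-null at PD the order was *Insl3* (15638 ± 8442 FPKM, SD, n = 2), *Cyp17a1* (223 ± 78.1), *Fdx1* (202 ± 50.8), *Hsd3b1* (153 ± 89.0), *Cyp11a1* (72.4 ± 7.24), *Hsd3b6* (67.1 ± 15.6), *Star* (19.5 ± 4.42), *Hsd17b3* (14.4 ± 12.7), *Scarb1* (10.96 ± 0.765) and *Lhcgr* (6.44 ± 3.41). FPKM is per length, but sequence shared with other genes may make the levels of *Insl3*, *Hsd3b1* and *Hsd3b6* less certain. The order is therefore approximate, and the effect of shared sequence on these levels was not tested. The values of *Cyp17a1*, *Fdx1* and *Hsd3b1* overlapped, as did those of *Cyp11a1* and *Hsd3b6*, and those of *Hsd17b3* overlapped with *Star*, *Scarb1* and *Lhcgr*. The neighbours *Insl3* and *Cyp17a1*, *Hsd3b1* and *Cyp11a1*, *Hsd3b6* and *Star*, and *Scarb1* and *Lhcgr* did not overlap.

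The proportions of the genes were not the same in both *Cnot4*-null PD libraries. *Insl3* made up 93.6% of the members' summed FPKM in replicate 1 and 96.1% in replicate 2. Without *Insl3*, *Fdx1* was the first of the other 9 in replicate 1, at 35.9%, ahead of *Cyp17a1* at 25.4% and *Hsd3b1* at 13.5%. In replicate 2 *Cyp17a1* was first at 31.8%, ahead of *Hsd3b1* at 24.6% and *Fdx1* at 19.0%. The shares of *Hsd3b6* (8.47% and 8.94%) and *Cyp11a1* (10.2% and 8.86%) differed least in proportion. The members held 1.16% and 3.32% of the summed FPKM of these libraries, 0.0427% and 0.0293% in WT at PD, and from 0.0134% to 0.0164% at LZ.

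**Figure D4:**
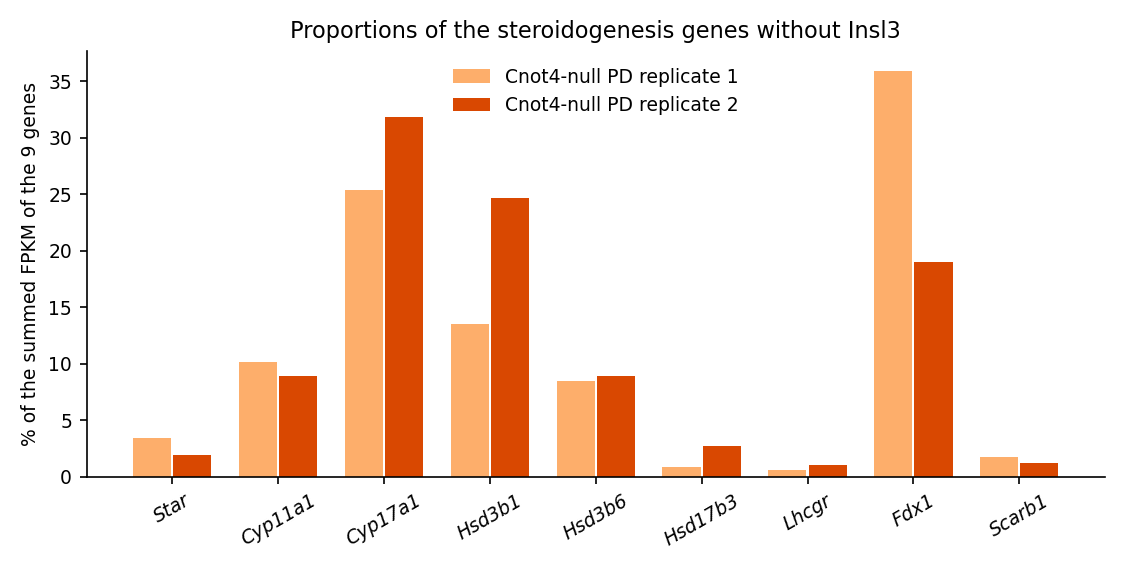
Share of each gene in the summed FPKM of the 9 members other than *Insl3*, in percent, for each *Cnot4*-null PD library. *Fdx1* is at 35.9% in replicate 1 and 19.0% in replicate 2, and *Hsd3b1* is at 13.5% and 24.6%.

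The ratio of replicate 2 to replicate 1 in *Cnot4*-null at PD differed among the members. *Hsd17b3* had 4.30 times as much in replicate 2, *Hsd3b1* 2.40, *Insl3* 2.23, *Lhcgr* 2.197, *Cyp17a1* 1.66, *Hsd3b6* 1.39 and *Cyp11a1* 1.15 times. *Scarb1* (0.906), *Star* (0.724) and *Fdx1* (0.698) were lower in replicate 2. The median log2 ratio of the members was 0.60, beside −0.11 over the 13015 genes at 1 FPKM or more in both libraries. It was 1.18 over the 15 other Leydig cell genes, 1.83 over 7 peritubular myoid genes, 1.74 over 9 macrophage genes, 0.69 over 6 spermatogonial genes, −0.39 over 7 early meiotic genes and −1.02 over 7 pachytene genes. With a floor of 10 FPKM the members' median was 0.34, without *Insl3* it was 0.48, and after rescaling to the same sum it was 1.00.

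**Figure D5:**
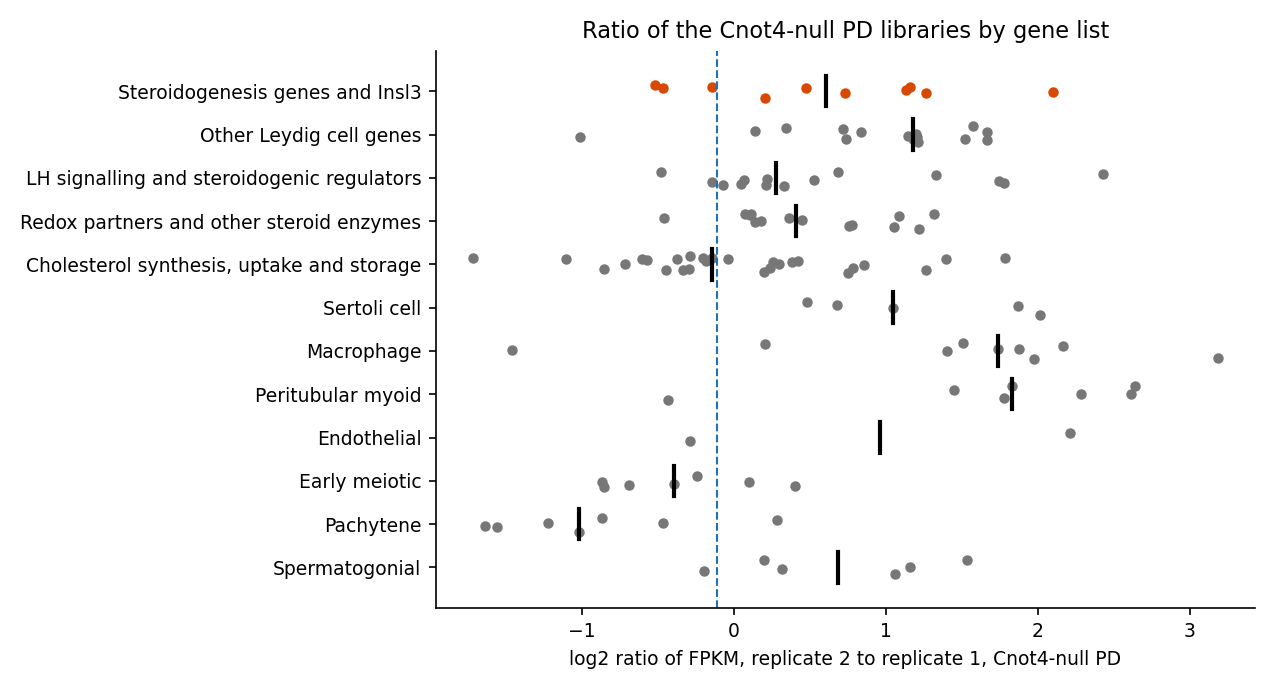
Log2 ratio of FPKM in *Cnot4*-null PD replicate 2 to replicate 1 for the genes of each list at 1 FPKM or more in both; each point is a gene, black bars are list medians, and the dashed line is the median of all such genes, −0.11. The members' median is 0.60, and that of the pachytene genes is −1.02.

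Other genes known from Leydig cells were high in the same libraries. All 15 on the list were called higher at PD, with a median log2 change of 3.81, beside 41.6% of all genes higher and their median of 0.66, although 6 of them passed the filter only through *Cnot4*-null PD libraries. After quantile normalization 13 were called, and with medians made equal 14. *Ptgds*, a prostaglandin synthase, was at 15.98 and 1.37 FPKM in WT at PD and 866 and 1920 in *Cnot4*-null at PD. The fatty acid binding protein gene *Fabp3*, the most abundant of the list there, was at 18.2 and 2.69 FPKM in WT at PD and 1219 and 2033 in *Cnot4*-null at PD. *Aldh1a1* (183 and 421 FPKM) and *Bhmt* (58.9 and 187) were also called, with these values in *Cnot4*-null at PD. *Aldh1a1* is not restricted to Leydig cells. The summed FPKM of the list was 45.0 and 8.97 in WT at PD, 2503 and 4880 in *Cnot4*-null at PD, and between 11.05 and 42.9 at LZ. The part of Leydig cell RNA in the PD differences was not tested.

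Among genes of luteinizing hormone signalling and of the regulation of steroidogenesis, 11 of the 14 tested of 16 listed were called higher and 0 lower (median log2 change 1.87), beside 41.6% of all genes higher. After quantile normalization 9 were higher and 1 lower (median 0.97), and with medians made equal 8 and 3. Of the 14, 1 passed the filter only through *Cnot4*-null PD libraries. *Nr4a1*, an immediate early transcription factor gene, was at 0.451 and 0.155 FPKM in WT at PD and 12.6 and 67.6 in *Cnot4*-null at PD. *Gnas*, which encodes the stimulatory G protein subunit, was at 5.23 and 4.61 in WT at PD, 82.3 and 133 in *Cnot4*-null at PD, and between 17.9 and 27.0 at LZ. *Akap1* (1.09 and 1.17 against 34.3 and 31.1 FPKM) and *Tspo* (2.55 and 0.180 against 29.0 and 33.6) also rose. *Nr5a1*, *Prkaca* and *Cyb5* were chosen after their values had been seen. *Nr5a1* was at 0.187 and 0.0855 FPKM in WT at PD and 4.81 and 16.1 in *Cnot4*-null at PD. *Prkaca*, the catalytic subunit gene of protein kinase A, was at 31.3 and 32.7 FPKM in WT at PD and 32.7 and 31.1 in *Cnot4*-null at PD.

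Of 27 redox partners and other steroid enzymes, 18 were tested, 10 were called higher and 0 lower (median log2 change 1.52), beside 41.6% of all genes higher. Of the 18, 3 passed the filter only through *Cnot4*-null PD libraries. With medians made equal 8 were higher and 4 lower, and with quantile normalization 8 and 2. *Akr1cl*, an aldo-keto reductase gene, was at 6.35 and 0.102 FPKM in WT at PD and 346 and 586 in *Cnot4*-null at PD, so that the WT PD libraries were unequal for it as for *Insl3*. *Hsd17b10* and *Hsd17b12* were at 1.36 to 1.96 FPKM in WT at PD, at 24.2 to 39.3 in *Cnot4*-null at PD and at 28.5 to 62.9 at LZ, so that WT PD was the low group. *Fdxr*, the reductase that hands electrons to FDX1, was at 2.47 and 3.32 FPKM in WT at PD and 15.9 and 33.0 in *Cnot4*-null at PD. *Cyb5*, a partner of CYP17A1, was at 80.8 and 99.0 in WT at PD and 109 and 118 in *Cnot4*-null at PD, and was not called (log2 change 0.33, limma adjusted p = 0.503).

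Of 29 genes of cholesterol synthesis, uptake and storage, 28 were tested, 21 were called higher and 1 lower (median log2 change 1.58), beside 41.6% and 11.5% of all genes, and 1 of the 28 passed the filter only through *Cnot4*-null PD libraries. *Sc4mol*, *Insig1* and *Nsdhl* were among the genes with the largest changes of that list. *Insig1*, a regulator of sterol synthesis, was at 1.83 and 1.06 FPKM in WT at PD, 27.0 and 32.3 in *Cnot4*-null at PD, and 45.5 to 90.4 at LZ. *Fdps*, the most abundant in *Cnot4*-null at PD, was at 50.9 and 42.1 FPKM in WT at PD and 142 and 113 in *Cnot4*-null at PD. Its change lost its call after rescaling to the same median (0.01, adjusted p = 0.972). *Insig1* and *Fdps* in *Cnot4*-null at PD thus lay within or below their LZ range, *Sc4mol* (20.5 and 49.2 FPKM, against 12.4 to 17.5 at LZ) lay above it, and *Insl3*, *Cyp17a1* and *Hsd3b1* were far above theirs. Under quantile normalization 8 of the list were called higher and 2 lower, beside 2855 and 4070 of all 15899 genes tested. With medians made equal, 14 were called higher and 8 lower, beside 3704 and 6378.

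Markers of other testis cells were read in the same way. All 7 peritubular myoid genes were called higher at PD (7 after quantile normalization, 6 with medians made equal), beside 41.6% of all genes. Of the 7, 3 passed the filter only through *Cnot4*-null PD libraries and so had to differ. Their summed FPKM was 9.28 and 6.42 in WT at PD, 187 and 614 in *Cnot4*-null at PD and 4.78 to 30.2 at LZ. *Myl9* was the most abundant (85.4 and 293 FPKM in *Cnot4*-null at PD), and *Acta2*, the actin of smooth muscle, was at 1.14 and 0.968 in WT at PD and 42.8 and 209 in *Cnot4*-null at PD. *Tagln* was at 13.7 and 48.7 FPKM and *Des* at 2.31 and 14.2 in *Cnot4*-null at PD. Of 12 macrophage genes 11 were tested (2 through *Cnot4*-null PD libraries only). Of these, 5 were called higher and 0 lower, beside 41.6% of all genes higher. With medians made equal 5 were called higher, and after quantile normalization 1. The summed FPKM of the 12 was 25.8 and 17.6 in WT at PD, 387 and 272 in *Cnot4*-null at PD and 21.6 to 69.6 at LZ. *Aif1*, the most abundant macrophage gene, was at 352 and 128 FPKM in *Cnot4*-null at PD, against 3.89 and 35.3 for *C1qa*, 4.75 and 21.3 for *C1qc* and 0.803 and 4.27 for *Csf1r*. *Aif1* held a large part of that sum and was lower in replicate 2 (0.363 times replicate 1). The median ratio over 9 macrophage genes was 3.34. *C1qa*, *C1qc* and *Csf1r* lost their calls without either WT PD library (adjusted p = 0.102 to 0.113), and *C1qa* (0.191) and *C1qc* (0.185) also without *Cnot4*-null PD replicate 2. Quantile normalization (0.0624, 0.0544 and 0.174) and leaving out the filter (0.104, 0.0974 and 0.0750) also removed the calls of *C1qa*, *C1qc* and *Csf1r*. *C1qa* (0.0554 and 0.0556) and *Csf1r* (0.0501 in both) lost them without either *Cnot4*-null LZ library as well. *Des* lost its call without either WT PD library too (0.0552 and 0.0612).

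Among the Sertoli cell genes, 4 were chosen after their values had been seen. Of these, *Sox9* was at 0.590 and 0.384 FPKM in *Cnot4*-null at PD, *Amh* at 0 and 0.129, and *Fshr* at 0 in both. The fourth, *Wt1*, was at 0.133 and 0.244 in WT at PD, 0.967 and 2.23 in *Cnot4*-null at PD and 0.866 to 1.73 at LZ, and was called higher at PD (log2 change 1.09, limma adjusted p = 0.0204). Of 11 Sertoli cell genes matched, 9 were tested, 5 were called higher and 1 lower (2 and 1 after quantile normalization, 3 and 1 with medians made equal), beside 41.6% of all genes higher and 11.5% lower. The summed FPKM was 18.8 and 37.2 in WT at PD, 154 and 290 in *Cnot4*-null at PD and 101 to 204 at LZ. *Clu*, which other cells also express, was the most abundant in *Cnot4*-null at PD (94.6 and 196 FPKM, 55.9 and 47.4 in WT at LZ, 4.56 and 6.88 in *Cnot4*-null at LZ), followed there by *Ctsl* (39.9 and 55.7, and 75.9 to 123 at LZ), *Aard* (10.7 and 17.2) and *Trf* (2.55 and 10.3). The call of *Trf* was lost without WT PD replicate 2 (adjusted p = 0.0685), and that of *Aard* without WT PD replicate 1 (0.0717) or *Cnot4*-null PD replicate 2 (0.0732). Both calls were lost after quantile normalization (0.0928 and 0.0849), and that of *Aard* with medians made equal (0.104). Of 8 endothelial genes 3 were tested, all of which passed the filter only through *Cnot4*-null PD libraries, so that the direction was set by the filter. Of these, 2 were called higher (*Cdh5* at 1.07 and 4.95 and *Flt1* at 1.40 and 1.15 FPKM in *Cnot4*-null at PD), a call that *Cdh5* lost without either WT PD library (adjusted p = 0.0790 and 0.0899) and *Flt1* without WT PD replicate 2 (0.0852). *Cdh5* was also not called with no filter (0.0570), nor *Flt1* with medians made equal (0.0621), and neither was after quantile normalization. The summed FPKM of the endothelial genes was 0.588 and 0.320 in WT at PD, 3.79 and 8.97 in *Cnot4*-null at PD and 0.290 to 1.07 at LZ. Of the 6 red blood cell genes 5 were listed at 0 in every library, and *Alas2* was at 0.269 and 0 in *Cnot4*-null at PD. The part of these cells in the differences of the members was not tested.

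Germ cell markers were present in all libraries. The summed FPKM of 7 pachytene genes was 11846 and 10982 in WT at PD and 5577 and 1982 in *Cnot4*-null at PD, of which *Ldhc* held 4584.5 and 1474, and it lay between 93.6 and 350 at LZ. *Acrv1* was called higher at PD, *Hspa2* was called lower, a call that was lost when any single LZ or WT PD library (adjusted p = 0.0537 to 0.172) or *Cnot4*-null PD replicate 2 (0.252) was left out, after quantile normalization (0.0612), with a pseudocount of 0.1 (0.0518) and with no filter (0.131). With medians made equal, 1 of the 7 pachytene genes was called higher and 6 lower, and so were 1 and 6 of the 7 early meiotic genes. Of all 15899 genes tested, 3704 were called higher and 6378 lower under that scaling. After quantile normalization 2 early meiotic genes were called higher and 3 lower, and 1 pachytene gene each way, beside 2855 and 4070 of all genes. Without scaling, 41.6% of all genes tested were called higher and 11.5% lower. Of 7 early meiotic genes *Dmc1* was called higher and 4, among them *Spo11*, *Hormad1* and *Sycp3*, lower, and the calls of these 3 were lost without *Cnot4*-null PD replicate 2 (adjusted p = 0.0996 to 0.226), without either WT PD library (0.0693 to 0.149) or with no filter (0.0596 to 0.119), and that of *Sycp3* also without either WT LZ library (0.0682 and 0.0678). *Ldhc* (log2 change −1.96, limma adjusted p = 0.0568) was called lower without either *Cnot4*-null LZ library (0.0402 and 0.0410) or *Cnot4*-null PD replicate 1 (0.0489), with medians (−3.40, 0.00482) or sums (−1.84, 0.0415) made equal, and with replicate number as a block (0.0459). The summed FPKM of the early meiotic genes was 1433 and 1459 in WT at PD, 930 and 599 in *Cnot4*-null at PD and 1473 to 3172 at LZ. All 6 spermatogonial genes were called higher (4 after quantile normalization, 5 with medians made equal), beside 41.6% of all genes higher. Their summed FPKM was 17.7 and 11.9 in WT at PD, 276 and 350 in *Cnot4*-null at PD and 343 to 543 at LZ. *Uchl1* (202 and 232 FPKM in *Cnot4*-null at PD), *Sohlh1* (41.3 and 51.3), and *Kit* (13.7 and 39.7) lay within or below their LZ range there, and *Zbtb16* (5.97 and 13.4, against 3.06 to 8.06 at LZ) lay above it in replicate 2. *Gfra1*, chosen after its values had been seen, lay above its LZ range of 0.661 to 1.65 in both (1.80 and 3.75). In a fit of the PD libraries alone, *C1qa* (adjusted p = 0.0611), *Csf1r* (0.1002), *Des* (0.0652), *Trf* (0.0535), *Cdh5* (0.0808), *Hormad1* (0.0502), *Sycp3* (0.0954) and *Hspa2* (0.131) were not called. *Hspa2* was also not called in a limma fit to all libraries without a mean-variance trend (adjusted p = 0.0596).

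The genes whose centred log2(FPKM + 1) profile over the 8 libraries was closest to the members' mean profile were *Vcam1*, *Sult1e1*, *Serpina3c*, *Serpinf1*, *Anxa1*, *Efemp1*, *Ecm1* and *Tcf21*, with a root mean square difference of 0.23 to 0.30. *Vcam1* and *Sult1e1* were also on the list of other Leydig cell genes. *Sult1e1*, an estrogen sulfotransferase gene, was at 1.46 and 0 FPKM in WT at PD and 20.0 and 22.0 in *Cnot4*-null at PD. *Tcf21*, a transcription factor gene of mesenchymal cells, was at 0.750 and 0 in WT at PD and 13.9 and 45.9 in *Cnot4*-null at PD. All 8 were higher in WT PD replicate 1 than in replicate 2, and 7 of them, all but *Ecm1*, were listed at 0 in replicate 2, as their choice by a profile that includes these libraries makes likely. The members themselves lay 0.55 (*Hsd3b6*) to 2.43 (*Insl3*) from their mean profile.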

How the data were processed

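FPKM values deposited by the authors for 23235 gene symbols were used as given, in 8 libraries of 4 groups. Per the study's methods, the authors trimmed reads to 50 bases, mapped them to mm9 with TopHat 2.1.1, kept uniquely mapped reads and made FPKM with Cufflinks 2.2.1. The 15899 genes that exceeded 1 FPKM in any of the libraries were fitted with limma 3.58.1 (R 4.3.3) on log2(FPKM + 1), with 4 groups, 4 residual degrees of freedom, a mean-variance trend, 5 contrasts and Benjamini-Hochberg adjustment over all genes tested, two-sided. An exact permutation test of 2 libraries against 2 cannot go below p = 0.333. Shares, ratios and figures were made with Python 3.11.15, numpy 2.4.6, pandas 2.3.3 and matplotlib 3.10.9. Transcripts and positions are from GENCODE vM1 (mm9), promoters from RefSeq. The authors made FPKM with UCSC gene models, so the overlap of *Insl3* with *Jak3* and the shared windows may differ in their annotation. Named genes were the 10 members, up to 4 called genes of each list with the largest change at PD, the most abundant of each list in *Cnot4*-null PD, and the 8 nearest profiles; 1 gene so named is not reported here. *Jak3*, *Hsd3b2*, *Nr5a1*, *Prkaca*, *Cyb5* and *Gfra1* were added after their values had been seen, as were *Sox9*, *Amh*, *Fshr* and *Wt1*. The members and lists were chosen with earlier results of these data known. Filters, pseudocounts, scalings, model settings and left-out libraries were varied.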

Additional observations from a re-analysis of the deposited data

Results flagged for a closer look

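The change from WT to *Cnot4*-null differed between PD and LZ for the genes below. Each value is the log2 genotype effect at PD less that at LZ, tested by limma as a difference of effects over all 8 libraries, with 2 in each group. These genes were those among the members and the genes named from each list whose difference had an adjusted p under 0.05. The genes named from lists were mostly picked for a large called change at PD, so the sign and size of their differences were in part set by that choice. *Hsd3b1*, *Hsd3b6*, *Hsd17b3*, *Lhcgr* and *Des* passed the filter only through *Cnot4*-null PD libraries, which set the sign of their differences. Among the 10 steroidogenesis genes it was 9.14 for *Insl3* (adjusted p = 0.00882), 2.12 for *Star* (adjusted p = 0.0218), 5.39 for *Cyp11a1* (adjusted p = 0.00311), 6.28 for *Cyp17a1* (adjusted p = 0.00661), 6.86 for *Hsd3b1* (adjusted p = 0.00136), 5.85 for *Hsd3b6* (adjusted p = 0.00136), 3.57 for *Hsd17b3* (adjusted p = 0.0163), 2.67 for *Lhcgr* (adjusted p = 0.00898) and 1.81 for *Scarb1* (adjusted p = 0.0112). With no filter *Insl3* (adjusted p = 0.0512), *Star* (0.0644) and *Hsd17b3* (0.0644) were not called, with a pseudocount of 0.1 *Cyp17a1* (0.0525) was not, after quantile normalization *Star*, *Hsd17b3*, *Lhcgr* (0.0595) and *Scarb1* were not, and with medians made equal *Star* (0.184) and *Scarb1* (0.267) were not. Among other Leydig cell genes the difference was 9.83 for *Ptgds* (adjusted p = 0.00282), 8.42 for *Fabp3* (adjusted p = 0.00204), 8.40 for *Aldh1a1* (adjusted p = 0.00103) and 6.31 for *Bhmt* (adjusted p = 0.00269). For genes of luteinizing hormone signalling and regulation it was 4.17 for *Nr4a1* (adjusted p = 0.0225), 4.13 for *Gnas* (adjusted p = 0.00180), 3.61 for *Akap1* (adjusted p = 0.00101) and 5.45 for *Tspo* (adjusted p = 0.00372). Among redox partners and other steroid enzymes the value was 7.03 for *Akr1cl* (adjusted p = 0.00540), 3.88 for *Hsd17b10* (adjusted p = 0.000870), 3.13 for *Hsd17b12* (adjusted p = 0.00269) and 2.49 for *Fdxr* (adjusted p = 0.0141). For cholesterol genes it came to 4.64 for *Sc4mol* (adjusted p = 0.00208), 4.34 for *Insig1* (adjusted p = 0.00101), 3.61 for *Nsdhl* (adjusted p = 0.00263) and 1.84 for *Fdps* (adjusted p = 0.00437). Sertoli cell genes had 6.48 for *Clu* (adjusted p = 0.00136), 2.32 for *Ctsl* (adjusted p = 0.0210), 3.17 for *Trf* (adjusted p = 0.0231) and 3.89 for *Aard* (adjusted p = 0.00676). At LZ *Clu* (log2 change −2.99, adjusted p = 0.136) and *Aard* (−1.77, adjusted p = 0.598) were lower in *Cnot4*-null without being called, and at PD alone the changes were 3.50 and 2.12. Among macrophage genes the value was 3.46 for *Aif1* (adjusted p = 0.0333). Peritubular myoid genes had 8.20 for *Myl9* (adjusted p = 0.00177), 5.80 for *Acta2* (adjusted p = 0.00540), 3.87 for *Tagln* (adjusted p = 0.0119) and 2.97 for *Des* (adjusted p = 0.0419). Early meiotic genes had 2.098 for *Dmc1* (adjusted p = 0.0106), −1.89 for *Hormad1* (adjusted p = 0.0315) and −1.88 for *Sycp3* (adjusted p = 0.0429). Among pachytene genes it was 4.31 for *Acrv1* (adjusted p = 0.00626). Spermatogonial genes had 4.86 for *Sohlh1* (adjusted p = 0.00103), 5.04 for *Uchl1* (adjusted p = 0.000993), 4.02 for *Kit* (adjusted p = 0.00522) and 2.41 for *Zbtb16* (adjusted p = 0.0218). *Hormad1* and *Sycp3* had negative differences, and the others positive ones. A difference also holds the change at LZ, which was not called for any of these genes. Besides *Clu* and *Aard*, the change at LZ was −2.16 for *Ptgds* (7.67 at PD), −1.67 for *Myl9* (6.53), −1.66 for *Aldh1a1* (6.75), −1.48 for *Acrv1* (2.83) and −1.47 for *Tspo* (3.98), and smaller than 1 in size for the others. The causes were not tested.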

How the results depend on the processing

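At PD, 7 to 9 members were called under every alternative, 7 where a mean FPKM of at least 5 left fewer genes to test. At LZ the count was 0 under all of them. From LZ to PD it was 2 to 5 in WT when single libraries were left out, 5 without WT PD replicate 2, and 7 to 9 in *Cnot4*-null over all alternatives. For the difference of the genotype effects it was 5 after quantile normalization, against 9; the cause was not tested. The median log2 change of the members at PD, Cnot4-null against WT, was 4.45. It was 5.48 with a mean FPKM of at least 5, 6.74 with a pseudocount of 0.1, and 3.67 after rescaling to the same median. Over the alternatives the change at PD ranged from 1.19 to 2.75 for *Star*, 4.41 to 7.21 for *Cyp11a1* and 1.80 to 5.09 for *Lhcgr*. For *Hsd3b1* it ranged from 6.32 to 9.64 and for *Hsd3b6* from 4.77 to 7.73. The median log2 ratio of *Cnot4*-null PD replicate 2 to replicate 1, 0.60, was 0.34 with a floor of 10 FPKM, 0.60 (0.598) from FPKM + 1, 0.54 after rescaling to the same median, 1.00 to the same sum, 0.92 after quantile normalization and 0.48 without *Insl3*, an alternative chosen after seeing the data. Without *Insl3* the members' share of the summed FPKM was 0.0121% and 0.0151% in WT at LZ, 0.0123% and 0.0129% in *Cnot4*-null at LZ, 0.0305% and 0.0288% in WT at PD, and 0.0742% and 0.129% in *Cnot4*-null at PD. The change of *Flt1* at PD was −0.061 after quantile normalization, against 1.02. With replicate number as a block, 9 members were called at PD and 3 from LZ to PD in WT. Each replicate 1 library was also taken as its deviation from its group mean in log2(FPKM + 1). Between groups these deviations correlated by −0.0651 to 0.194 over the genes tested, so no pairing is apparent. Of the members' tested values, 847 kept their side of the threshold, 25 fell below it and 8 passed it. A left-out library leaves a group with 1 library, which is assumed to vary like the others.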
